A study of Homo sapiens with 6 samples.

Results

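Levels of 9 cell adhesion genes were followed in SiHa cells: the classical cadherins CDH1, CDH3 and CDH2, the catenins CTNNA1, CTNNB1 and CTNND1, and the adhesion receptors NECTIN3, FAT1 and PCDH7. They were found by gene name among 35544 loci of the deposited table, and each had a row. SiHa is an established human cervical squamous carcinoma line. PolyA RNA was sequenced from cells collected 72 h after transfection with a plasmid, either the vector (3 libraries) or one carrying hsa_circ_0005358 (3 libraries, called circ_0005358 here), in a search for mRNAs downstream of this circular RNA. Its name is spelled in more than one way in the labels, and the spellings were taken to mean one RNA. Whether libraries of a group are separate cultures is not said, so that the p-values here reflect only library-to-library spread, which may be technical. The labels name no promoter of the plasmid, and the level of the circular RNA was not analysed here.

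Classical cadherins are calcium-dependent receptors that hold neighbouring cells together at adherens junctions by binding the same cadherin on the next cell. Their cytoplasmic tails bind beta-catenin (CTNNB1) and p120 catenin (CTNND1), and alpha-catenin (CTNNA1) links beta-catenin to actin. CDH1 encodes E-cadherin, the main cadherin of epithelia, CDH3 encodes P-cadherin of basal epithelial cells, and CDH2 encodes N-cadherin of neural and mesenchymal cells. A switch from E-cadherin to N-cadherin is a known feature of epithelial-mesenchymal transition.

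The 9 genes were chosen by gene family and on their known FPKM difference between these same groups. Their differences are therefore a description, given with no p-value, and the count of members past a threshold supports nothing. FPKM, the deposited unit, corrects for transcript length and sequencing depth, so that levels of genes can be compared. Differences are of group means of log2(FPKM + 1), circ_0005358 minus vector, a scale that understates the change of low genes.

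The libraries listed between 23227 and 27803 loci above 0, the most in vector replicate 3, and estimated depth relative to the deepest library was 71.2% in circ_0005358 replicate 2 and 93.8% or more in the others. Of 10 markers of epithelia and cervical lines 9 reached FPKM of 1, and TP63, a regulator of squamous epithelium, stayed at or below 0.254 FPKM. Of these, 9 were tested and 7 fell, among them the keratin KRT17, which fell from 625 ± 41.1 to 205 ± 11.7 FPKM (mean ± SD, n = 3 each; log2 difference -1.60, limma adjusted p = 0.000443). Of all tested loci 11.4% were called, 4.96% as lower. The summed level of the list was 1348 to 1430 FPKM across vector libraries and 643 to 736 FPKM across circ_0005358 libraries. Of 5 endothelial markers none reached FPKM of 1, with sums of 0.235 to 0.872 FPKM and 0.345 to 0.420 FPKM in the same order. Leukocyte markers summed to 65.4 to 68.2 FPKM and 52.6 to 69.7 FPKM, of which 2 of 6 rows reached FPKM of 1 (CD14 and a joined row with CD68) and the defining PTPRC stayed at or below 0.0605 FPKM. Of 7 fibroblast markers only LUM reached FPKM of 1, and the sums of 7.10 to 10.7 FPKM and 2.67 to 3.15 FPKM were mostly LUM, which averaged 7.47 and 1.43 FPKM. Below the filter, COL3A1 averaged 0.109 and 0.821 FPKM, PDGFRB 0.0949 and 0.225 FPKM and DCN 0.156 and 0.205 FPKM, all higher without overlap, while COL1A1 averaged 0.531 and 0.251 FPKM and was lower without overlap. Of 5 neural markers only MAP2 reached FPKM of 1, with sums of 18.3 to 24.3 FPKM and 36.7 to 43.4 FPKM. MAP2 rose from 20.8 ± 3.09 to 39.3 ± 3.48 FPKM (mean ± SD, n = 3 each; log2 difference 0.89, limma adjusted p = 0.0120, and 0.0114 to 0.0825 over all settings). Below the filter, SNAP25 averaged 0.146 and 0.0931 FPKM and was lower without overlap. Of all tested loci 15.9% were lower and 19.8% higher without overlap. In bulk RNA fewer cells that express a gene and less RNA per cell cannot be told apart, and the part of these marker levels in the differences below was not tested.

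Of the 9 members 8 had FPKM of at least 1 in 3 libraries and entered the fit of 10295 loci, and CDH2 did not. CDH3, NECTIN3 and PCDH7 entered through their vector libraries alone, so their groups could not overlap. CDH1 had 1 circ_0005358 library at FPKM of 1 or more, so it met the filter with the help of the vector libraries. An adjusted p of 0.05 was passed by 5 of the 8, all lower with circ_0005358 (CDH1, CDH3, NECTIN3, FAT1 and PCDH7), where 11.4% of all tested loci passed, 4.96% as lower and 6.41% as higher. The groups did not overlap for 7 of the 9 members, 6 lower and 1 higher, where 35.8% of tested loci did not overlap, 15.9% lower and 19.8% higher. The median difference of the 8 was -0.96 on the log2 scale, against 0.02 for all tested loci. Nothing is read from these counts, since the contrast was used in the choice.

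CDH1 measured 8.78, 15.8 and 16.8 FPKM in vector replicates 1 to 3, and the circ_0005358 libraries measured 0.945, 0.883 and 1.05 FPKM. The groups were far apart, and vector replicate 1 was well below the other 2 of its group. The mean went from 13.8 ± 4.37 to 0.958 ± 0.0821 FPKM (mean ± SD, n = 3 each), which left 6.94% of the vector level. The difference was -2.87 on the log2 scale with a standard error of 0.24, and 6 of the tested loci had a lower one.

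CDH3 measured 11.3, 9.97 and 9.49 FPKM in the vector libraries and 0.701, 0.818 and 0.701 FPKM in those with circ_0005358. Its vector libraries lay closer together than those of CDH1, and none of its circ_0005358 libraries reached FPKM of 1. The share left was 7.21% of the vector mean, and the log2 difference was -2.69 (standard error 0.083). A second row with this symbol and a single transcript was listed at 0.761 FPKM in vector replicate 2 and at 0.0317 FPKM or less elsewhere. The ratio of CDH1 to CDH3 levels was 1.38 ± 0.529 with vector and 1.31 ± 0.209 with circ_0005358 (SD, n = 3 each), a difference within its spread.

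CDH2 was near 0 throughout, at 0.0590, 0.0418 and 0.135 FPKM in vector libraries and 0.0495, 0.0989 and 0.0310 FPKM in circ_0005358 libraries. The groups overlapped, and the highest value belonged to vector replicate 3, which also held the highest value of 50.5% of all untested loci above 0. CDH2 made up 0.322 ± 0.176% of the summed level of CDH1, CDH3 and CDH2 with vector and 3.39 ± 1.92% with circ_0005358 (SD, n = 3 each). That sum went from 24.1 ± 3.46 to 1.76 ± 0.0556 FPKM (SD, n = 3 each), so the share of CDH2 differed while its own level overlapped between groups.

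**Figure D1:**
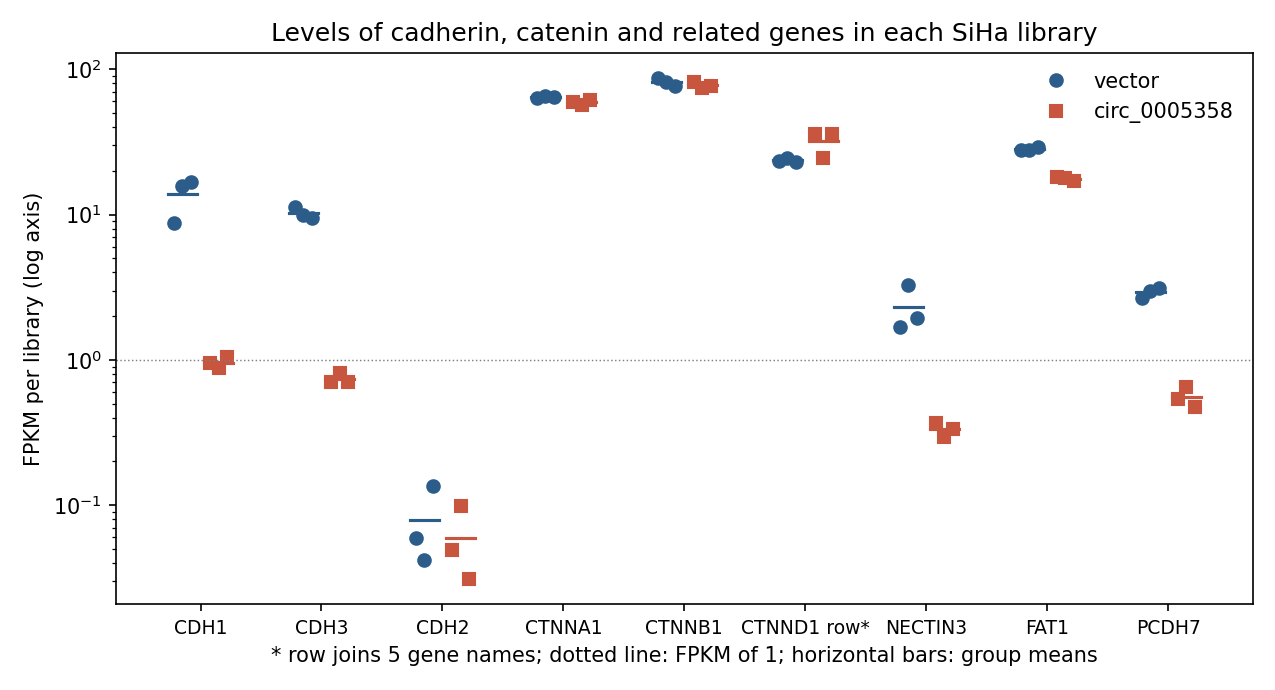
FPKM (log axis) of each member in each library, with vector as blue circles, circ_0005358 as red squares and group means as bars. CDH1, CDH3, NECTIN3 and PCDH7 lie above 1 FPKM in all vector libraries and at or below 1.05 FPKM with circ_0005358, while CTNNA1 and CTNNB1 lie at 56.5 FPKM or above and CDH2 stays at or below 0.135 FPKM.

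Both tested catenins with a row of their own stayed near their vector level. CTNNB1 measured 86.9, 81.2 and 77.2 FPKM with vector and 81.2, 74.6 and 76.6 FPKM with circ_0005358, groups that overlapped (log2 difference -0.08, standard error 0.065). CTNNA1 measured 63.5, 65.4 and 64.4 FPKM with vector against 58.97, 56.5 and 61.7 FPKM. Its circ_0005358 libraries all lay below the vector libraries, but the log2 difference of -0.12 (standard error 0.052) did not pass the threshold.

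The ratio of CTNNB1 mRNA to cadherin mRNA differed, which restates the lower CDH1 and CDH3 levels and is no separate result, since members were chosen on this contrast. Protein was not measured here. CTNNB1 stood at 4.31, 3.15 and 2.92 times the summed level of the 3 classical cadherins in the vector libraries and at 47.9, 41.4 and 43.1 times in the circ_0005358 libraries, with means of 3.46 ± 0.747 and 44.1 ± 3.39 (SD, n = 3 each). The ratio of CTNNA1 to CTNNB1 was 0.790 ± 0.0533 and 0.764 ± 0.0404 (SD, n = 3 each), within its spread.

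CTNND1 shares its row with TMX2, SELENOH, the read-through gene TMX2-CTNND1 and AP001931.1. Of the 56 annotated transcripts on it 38 belong to CTNND1, so its value is not that of p120 catenin alone. The row measured 23.2, 24.5 and 23.1 FPKM with vector and 35.5, 24.6 and 35.97 FPKM with circ_0005358. The vector libraries were close together, and circ_0005358 replicate 2 lay just above them, apart from the other 2 of its group. The log2 difference of 0.40 (standard error 0.16) did not pass, but it was 0.58 and passed without circ_0005358 replicate 2.

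NECTIN3, FAT1 and PCDH7 encode other kinds of adhesion receptor. Nectins are immunoglobulin-like receptors that bind afadin at the same junctions, FAT1 is a giant atypical cadherin, and PCDH7 is a non-clustered protocadherin. Their promoter windows, 250 bases before to 50 after the annotated start, are shown because all 3 genes were lower with circ_0005358, with sequences from RefSeq on GRCh38.p14. They lie at chr3:111071566-111071865 on the plus strand (NECTIN3), chr4:186726647-186726946 on the minus strand (FAT1, the first of its 2 windows) and chr4:30720119-30720418 on the plus strand (PCDH7). Capitals mark GC boxes (GGGCGG or CCGCCC) and CCAAT boxes (CCAAT or ATTGG).
NECTIN3: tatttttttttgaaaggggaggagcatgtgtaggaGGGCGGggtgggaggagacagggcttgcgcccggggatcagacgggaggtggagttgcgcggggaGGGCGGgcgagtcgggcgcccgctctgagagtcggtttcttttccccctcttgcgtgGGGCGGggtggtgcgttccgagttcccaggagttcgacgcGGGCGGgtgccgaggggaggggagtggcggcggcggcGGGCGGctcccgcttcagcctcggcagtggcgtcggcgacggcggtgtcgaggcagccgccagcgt
FAT1: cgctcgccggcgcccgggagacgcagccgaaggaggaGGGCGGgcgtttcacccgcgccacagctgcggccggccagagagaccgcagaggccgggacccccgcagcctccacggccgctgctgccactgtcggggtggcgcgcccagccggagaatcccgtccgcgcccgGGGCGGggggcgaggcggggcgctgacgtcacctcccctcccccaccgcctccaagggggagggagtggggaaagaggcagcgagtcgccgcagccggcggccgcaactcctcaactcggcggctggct
PCDH7: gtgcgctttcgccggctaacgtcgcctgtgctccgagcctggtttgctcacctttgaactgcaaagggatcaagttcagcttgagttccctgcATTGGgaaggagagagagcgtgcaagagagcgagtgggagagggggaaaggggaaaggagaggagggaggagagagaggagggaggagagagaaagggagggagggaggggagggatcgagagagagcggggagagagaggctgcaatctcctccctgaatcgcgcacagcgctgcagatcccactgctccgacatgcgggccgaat

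These windows differ in composition, with 70.3% G and C in NECTIN3, 77.3% in FAT1 and 60.3% in PCDH7, against a median of 58.7% over all 35116 windows of the table. NECTIN3 had 5 GC boxes, FAT1 had 2 in the window shown, and PCDH7 had none and 1 CCAAT box. A GC box stood in 45.0% of all windows and a CCAAT box in 34.6%. Of the 9 members 6 had windows, 11 in all, and those of CDH1, CDH3 and CTNND1 were not used here. The E-box CACCTG (or CAGGTG), to which SNAI and ZEB factors bind, stood in 20.6% of all windows and in none of the 11. TATAAA (or TTTATA) stood in 11.5% of all windows and in 2 of the 11, 1 of CDH2 and 1 of CTNNA1. Both strands were read and overlapping matches counted, and a match is a description of letters only.

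NECTIN3 measured 1.68, 3.29 and 1.94 FPKM in vector libraries and 0.371, 0.293 and 0.336 FPKM in circ_0005358 libraries. It entered the fit through its vector libraries alone, so the groups could not overlap, and vector replicate 2 was the highest. The share left was 14.5% of the vector mean, and the log2 difference was -1.28 (standard error 0.19). It missed the threshold without circ_0005358 replicate 2 (log2 difference -1.26) and without replicate 3 (-1.28), although its size hardly moved. With a pseudocount of 0.1 in place of 1 it was -2.42.

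PCDH7 measured 2.67, 2.98 and 3.13 FPKM with vector and 0.542, 0.653 and 0.471 FPKM after the circ_0005358 plasmid. It too entered the fit through its vector libraries alone, so its groups could not overlap. The share left was 18.98% of the vector mean, and the log2 difference was -1.34 (standard error 0.081), or -2.21 with a pseudocount of 0.1. FAT1, the most abundant of the lower members, measured 27.8, 27.9 and 29.1 FPKM with vector and 18.1, 17.95 and 16.97 FPKM with circ_0005358. Both groups were tight, 62.5% of the vector mean was left, and the log2 difference was -0.65 (standard error 0.052).

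**Figure D2:**
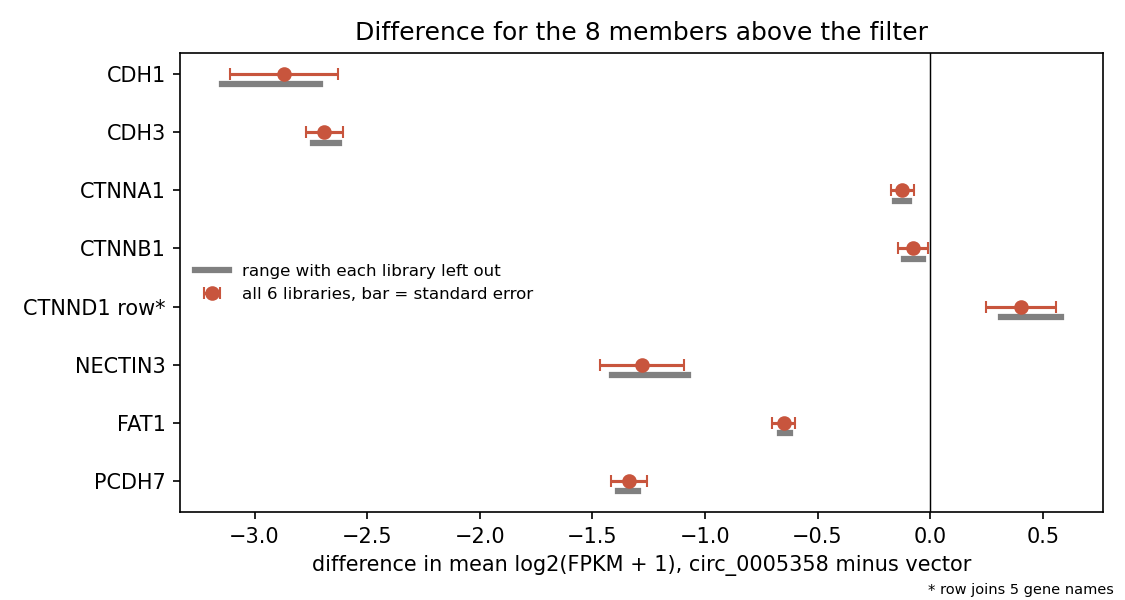
Difference in mean log2(FPKM + 1), circ_0005358 minus vector, for the 8 tested members, with standard error bars (n = 3 each) and, in grey, the range when each library was left out in turn. CDH1 (-2.87) and CDH3 (-2.69) lie farthest below 0, FAT1 lies at -0.65, and CTNNB1 and CTNNA1 lie near 0.

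By mean level with vector the order was CTNNB1 (81.7 FPKM), CTNNA1 (64.4 FPKM), FAT1 (28.3 FPKM), the CTNND1 row (23.6 FPKM), CDH1 (13.8 FPKM), CDH3 (10.3 FPKM), PCDH7 (2.93 FPKM), NECTIN3 (2.30 FPKM) and CDH2 (0.0786 FPKM). Neighbours in this order overlapped between libraries for CDH1 and CDH3 and for PCDH7 and NECTIN3. With circ_0005358 the CTNND1 row (32.02 FPKM) stood above FAT1 (17.7 FPKM), followed by CDH1 (0.958 FPKM), CDH3 (0.740 FPKM), PCDH7 (0.555 FPKM) and NECTIN3 (0.333 FPKM), and no neighbours overlapped.

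CDH3 and CDH1 are adjacent on chromosome 16, both on the plus strand, CDH3 at 68636189 to 68722616 and CDH1 at 68737225 to 68835548 (GRCh38, GENCODE 29), with 14.6 kb between them. Of the 4 tested genes around them, which had no part in the choice of members, none was called lower and 1 was called higher. Of all tested loci 11.4% were called. TANGO6, a Golgi organization gene 8.06 kb beyond CDH1, measured 9.01, 8.79 and 9.07 FPKM with vector and 9.90, 10.04 and 10.2 FPKM with circ_0005358 (log2 difference 0.15, limma adjusted p = 0.119). ZFP90, a zinc finger gene 60.1 kb before CDH3, averaged 5.71 ± 1.32 and 7.16 ± 1.31 FPKM (mean ± SD, n = 3 each; 0.29, limma adjusted p = 0.394). CHTF8, a sister chromatid cohesion gene, averaged 24.98 ± 1.85 and 27.7 ± 2.23 FPKM (mean ± SD, n = 3 each; 0.14, limma adjusted p = 0.353). PRMT7, an arginine methyltransferase gene 278 kb before CDH3, rose from 11.5 ± 0.309 to 16.02 ± 0.248 FPKM (mean ± SD, n = 3 each). Its log2 difference was 0.44 (limma adjusted p = 0.00570, and 0.00444 to 0.0741 over all settings).

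**Figure D3:**
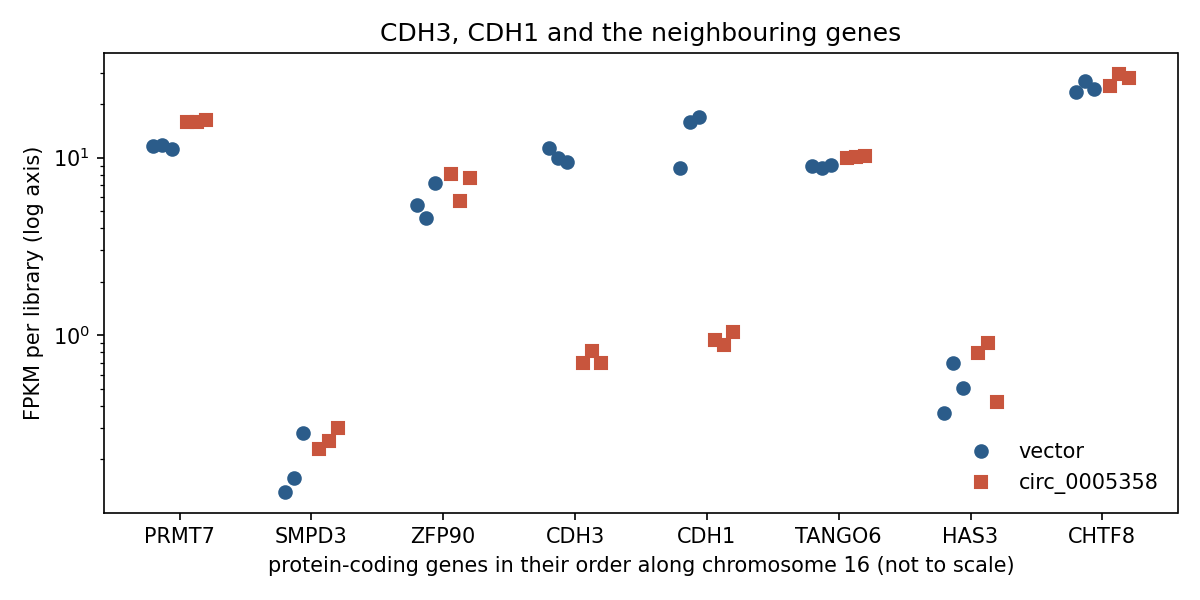
FPKM (log axis) in each library for CDH3, CDH1 and the nearest protein-coding genes in their order along chromosome 16, with vector as blue circles and circ_0005358 as red squares. For CDH3 and CDH1 all circ_0005358 libraries lie below the vector libraries, and for PRMT7 and TANGO6 they lie above them.

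Taking the 3 nearest protein-coding genes on each side of all members, 46 rows were no member, 17 were tested, and 1 was called higher and 2 lower. Of all tested loci 6.41% were called higher and 4.96% lower. The lower ones, named after their values were seen, were ARAP2, a GTPase-activating protein gene next to PCDH7 but 4801 kb away, and TRIML2, 1365 kb from FAT1. ARAP2 averaged 1.21 and 0.382 FPKM (log2 difference -0.67), and since it reached the filter through its vector libraries alone, it had to differ and its call supports nothing. TRIML2, with 2 circ_0005358 libraries at FPKM of 1 or more, averaged 1.85 and 0.911 FPKM (-0.58, limma adjusted p = 0.0225). The TRIML2 call was lost on leaving out any vector replicate or circ_0005358 replicate 2 (limma adjusted p up to 0.0814), with 0.0181 to 0.129 over all settings.

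Other genes of these families and of linked functions were taken by name in 10 lists. They held 142 symbols on 141 rows, of which 72 were tested, 6 were called higher and 9 lower (20.8% called, where 11.4% of all tested loci were), with a median log2 difference of -0.01. The lists were chosen with earlier results of these data known, so nothing is read from this share. Of the 69 untested rows 55 had their highest value in vector replicate 3.

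Of 25 further classical and atypical cadherin genes 23 were untested and did not exceed 0.456 FPKM. Of the 2 tested 0 passed by limma, with 1 at an unadjusted p under 0.05. CDH13, the T-cadherin, which is anchored to the membrane without a cytoplasmic tail, averaged 10.9 ± 0.378 and 11.2 ± 0.357 FPKM (mean ± SD, n = 3 each; log2 difference 0.03, limma adjusted p = 0.779), a difference whose sign turned under 2 scalings. CDH24 averaged 3.99 ± 0.198 and 5.19 ± 0.634 FPKM (mean ± SD, n = 3 each; 0.31, limma adjusted p = 0.102). The 10 further non-clustered protocadherins with a row were untested and did not exceed 0.459 FPKM.

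Among 5 tested relatives of the catenins 2 rose and 1 fell, where 11.4% of all tested loci were called. JUP, plakoglobin, which can replace beta-catenin on cadherin tails and also serves desmosomes, fell from 33.5 ± 1.13 to 22.7 ± 1.32 FPKM (mean ± SD, n = 3 each; log2 difference -0.54, limma adjusted p = 0.00630). PKP4, an armadillo protein related to p120 catenin, rose from 5.59 ± 0.559 to 8.09 ± 0.470 FPKM (mean ± SD, n = 3 each; 0.47, limma adjusted p = 0.0274). PKP4 missed the threshold when vector replicate 1 or 3 was left out (limma adjusted p = 0.0907 and 0.0721) and when circ_0005358 replicate 1 or 3 was (0.0808 and 0.0904), with 0.0248 to 0.132 over all settings. CTNNAL1, a relative of alpha-catenin on a row shared with TMEM245, rose from 10.7 ± 0.321 to 18.7 ± 1.82 FPKM (mean ± SD, n = 3 each; 0.74, limma adjusted p = 0.00544). CTNNBIP1, an inhibitor of beta-catenin on a row shared with CLSTN1, averaged 17.6 and 19.2 FPKM (0.12, limma adjusted p = 0.390). Over all settings the limma adjusted p of JUP was 0.00366 to 0.0614.

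Of 4 tested nectins and partners 0 passed by limma, with 1 at an unadjusted p under 0.05. This was PVR, the poliovirus receptor, on a row shared with CEACAM19, which averaged 8.62 ± 2.80 and 3.78 ± 0.183 FPKM (mean ± SD, n = 3 each; log2 difference -0.97, limma adjusted p = 0.0518). It passed without vector replicate 1 and under 4 other settings, with limma adjusted p = 0.0132 to 0.243 over all settings. NECTIN2 averaged 14.2 and 17.8 FPKM (limma adjusted p = 0.497) and NECTIN1 3.08 and 3.001 FPKM (0.833). AFDN, afadin, the actin-binding partner of nectins, averaged 3.13 and 3.10 FPKM (limma adjusted p = 0.932).

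Of the FAT, Dachsous and CELSR relatives 3 were tested and 0 passed by limma, with 1 at an unadjusted p under 0.05. CELSR2, a cadherin of planar cell polarity, averaged 2.39 ± 0.433 and 1.41 ± 0.213 FPKM (mean ± SD, n = 3 each; log2 difference -0.49, limma adjusted p = 0.0668). Without vector replicate 1 it passed (limma adjusted p = 0.0474, and 0.0474 to 0.195 over all settings). CELSR1 averaged 4.73 and 4.23 FPKM and the joined row of CELSR3 6.13 and 6.42 FPKM (limma adjusted p = 0.490 and 0.859).

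Among 14 tested genes that tie junctions to the cytoskeleton 1 rose and 2 fell, where 11.4% of all tested loci were called. SHROOM3, which recruits contractile actomyosin to junctions, fell from 3.59 ± 0.133 to 1.91 ± 0.0982 FPKM (mean ± SD, n = 3 each; log2 difference -0.66, limma adjusted p = 0.00338). ENAH, an actin filament elongation factor, fell from 22.6 ± 1.12 to 16.97 ± 0.854 FPKM (mean ± SD, n = 3 each; -0.40, limma adjusted p = 0.0193), and its call was lost on leaving out vector replicate 2 or 3 (limma adjusted p = 0.0678 and 0.0639) or circ_0005358 replicate 3 (0.0593). KIFC3, a microtubule motor at adherens junctions, rose from 3.32 ± 0.312 to 5.88 ± 0.757 FPKM (mean ± SD, n = 3 each; 0.67, limma adjusted p = 0.0172), and its call was lost on leaving out vector replicate 1 or 2 (limma adjusted p = 0.0583 and 0.0612) or circ_0005358 replicate 3 (0.0575). Over all settings the limma adjusted p was 0.00267 to 0.0596 for SHROOM3, 0.0162 to 0.118 for ENAH and 0.0133 to 0.0725 for KIFC3. VCL, vinculin, which binds alpha-catenin under tension, averaged 40.3 and 45.3 FPKM (0.17, limma adjusted p = 0.0897).

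Among 14 tested genes that shed, phosphorylate or recycle cadherins 1 rose and 1 fell, where 11.4% of all tested loci were called. PTPRU, a receptor tyrosine phosphatase that acts on junction proteins, rose from 3.97 ± 0.397 to 8.94 ± 0.880 FPKM (mean ± SD, n = 3 each; log2 difference 0.997, limma adjusted p = 0.00402). FER, a tyrosine kinase that binds p120 catenin, fell from 12.4 ± 0.444 to 8.92 ± 0.148 FPKM (mean ± SD, n = 3 each; -0.44, limma adjusted p = 0.00731). Over all settings the limma adjusted p of FER was 0.00532 to 0.0781. The joined row of ADAM15, a membrane protease, averaged 13.2 and 15.8 FPKM, and CBLL1, the ubiquitin ligase Hakai, 4.26 and 3.15 FPKM (limma adjusted p = 0.0999 and 0.103).

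Calls among known repressors of CDH1 transcription went both ways, with 2 of 9 tested higher and 2 lower and a median log2 difference of 0.05. Of all tested loci 6.41% were called higher and 4.96% lower. SNAI1, the zinc finger repressor Snail, measured 6.98, 5.43 and 6.15 FPKM in vector libraries against 10.03, 10.7 and 11.96 FPKM (log2 difference 0.73, limma adjusted p = 0.0139). Its groups did not overlap, and its call was lost on leaving out vector replicate 3 (limma adjusted p = 0.0514, and 0.0127 to 0.128 over all settings). Its relative SNAI2, Slug, went down, from 3.34, 3.56 and 3.52 FPKM to 0.492, 1.16 and 1.15 FPKM (-1.23, limma adjusted p = 0.00983), and its groups did not overlap either. Over all settings the limma adjusted p of SNAI2 was 0.00583 to 0.0881. SNAI2 and TWIST1 each had 2 circ_0005358 libraries at FPKM of 1 or more, so both met the filter of 3 libraries with the help of the vector libraries.

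ZEB1, a zinc finger and homeodomain repressor, rose from 2.01 ± 0.263 to 3.25 ± 0.233 FPKM (mean ± SD, n = 3 each; log2 difference 0.50, limma adjusted p = 0.0264). Its call was lost on leaving out vector replicate 1 or 2 (limma adjusted p = 0.0814 and 0.0678) or any circ_0005358 replicate (0.0681, 0.0623 and 0.0847), with 0.0208 to 0.0931 over all settings. TWIST1, a basic helix-loop-helix factor, fell from 2.75 ± 0.108 to 1.07 ± 0.419 FPKM (mean ± SD, n = 3 each; -0.87, limma adjusted p = 0.0274). Its call was lost on leaving out any vector replicate (limma adjusted p = 0.0838, 0.0910 and 0.0817) or circ_0005358 replicate 3 (0.0785), with 0.0178 to 0.0931 over all settings. Of the repressors without a call, TWIST2, EZH2 and ZEB2, named after their values were seen, were also higher without overlap. The others without a call overlapped between groups. TWIST2 averaged 2.95 and 6.54 FPKM (limma adjusted p = 0.284, and 0.0450 to 0.580 over all settings), with vector replicate 1 at 0.124 FPKM. EZH2 averaged 13.7 and 16.6 FPKM (limma adjusted p = 0.0993), and the untested ZEB2 0.218 and 0.718 FPKM. Only SNAI2 and TWIST1 of this list were lower without overlap. Of all tested loci 19.8% were higher and 15.9% lower without overlap.

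In the list of activators of epithelial cadherin genes 2 of 8 tested were called lower, where 4.96% of all tested loci were. These were ESRP1 and ESRP2, which regulate epithelial splicing and are not transcription factors. ESRP1 averaged 1.22 ± 0.169 and 0.177 ± 0.0668 FPKM (mean ± SD, n = 3 each; log2 difference -0.91), and since it reached the filter through its vector libraries alone, it had to differ and its call supports nothing. ESRP2, on a row shared with AC020978.6, fell from 8.25 ± 0.163 to 4.49 ± 0.517 FPKM (mean ± SD, n = 3 each; log2 difference -0.76, limma adjusted p = 0.00538). Over all settings the limma adjusted p of ESRP2 was 0.00419 to 0.0747. EHF, an epithelial ETS factor, averaged 13.1 and 6.40 FPKM (limma adjusted p = 0.0614). KLF5, a Kruppel-like factor, averaged 60.2 and 51.2 FPKM (limma adjusted p = 0.0615) and passed under the 3 scalings tried (0.0377, 0.0363 and 0.0392, with 0.0363 to 0.204 over all settings). GRHL2, an activator of CDH1 that was named after its values were seen, did not exceed 0.122 FPKM. Also named after their values were seen, the untested ELF3 (on a joined row), KLF4 and GRHL1 were lower without overlap. ELF3 averaged 0.467 and 0.0456 FPKM, KLF4 0.865 and 0.268 FPKM and GRHL1 0.946 and 0.706 FPKM. The joined row of OVOL2, tested, averaged 11.99 and 9.998 FPKM (limma adjusted p = 0.109), lower without overlap too. No gene of this list was higher without overlap. Of all tested loci 15.9% were lower and 19.8% higher without overlap, and nothing is read from these counts.

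Among genes of beta-catenin stability and its nuclear partners 1 of 13 tested passed, where 11.4% of all tested loci did. BTRC, the ubiquitin ligase subunit that recognises phosphorylated beta-catenin, fell from 8.58 ± 0.175 to 7.09 ± 0.265 FPKM (mean ± SD, n = 3 each; log2 difference -0.24, limma adjusted p = 0.0469). Its call was lost on leaving out any vector replicate (limma adjusted p = 0.136, 0.142 and 0.0978) or any circ_0005358 replicate (0.0890, 0.0970 and 0.109), with 0.0353 to 0.169 over all settings. AXIN1, a scaffold of the beta-catenin destruction complex, averaged 4.39 and 5.55 FPKM, and GSK3B, its kinase, 22.5 and 17.7 FPKM (limma adjusted p = 0.0668 and 0.0712). APC, another scaffold of that complex on a row joining 5 names, averaged 7.96 and 4.58 FPKM (limma adjusted p = 0.0908). It passed without circ_0005358 replicate 3 (0.0155, with 0.0155 to 0.273 over all settings).

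**Figure D4:**
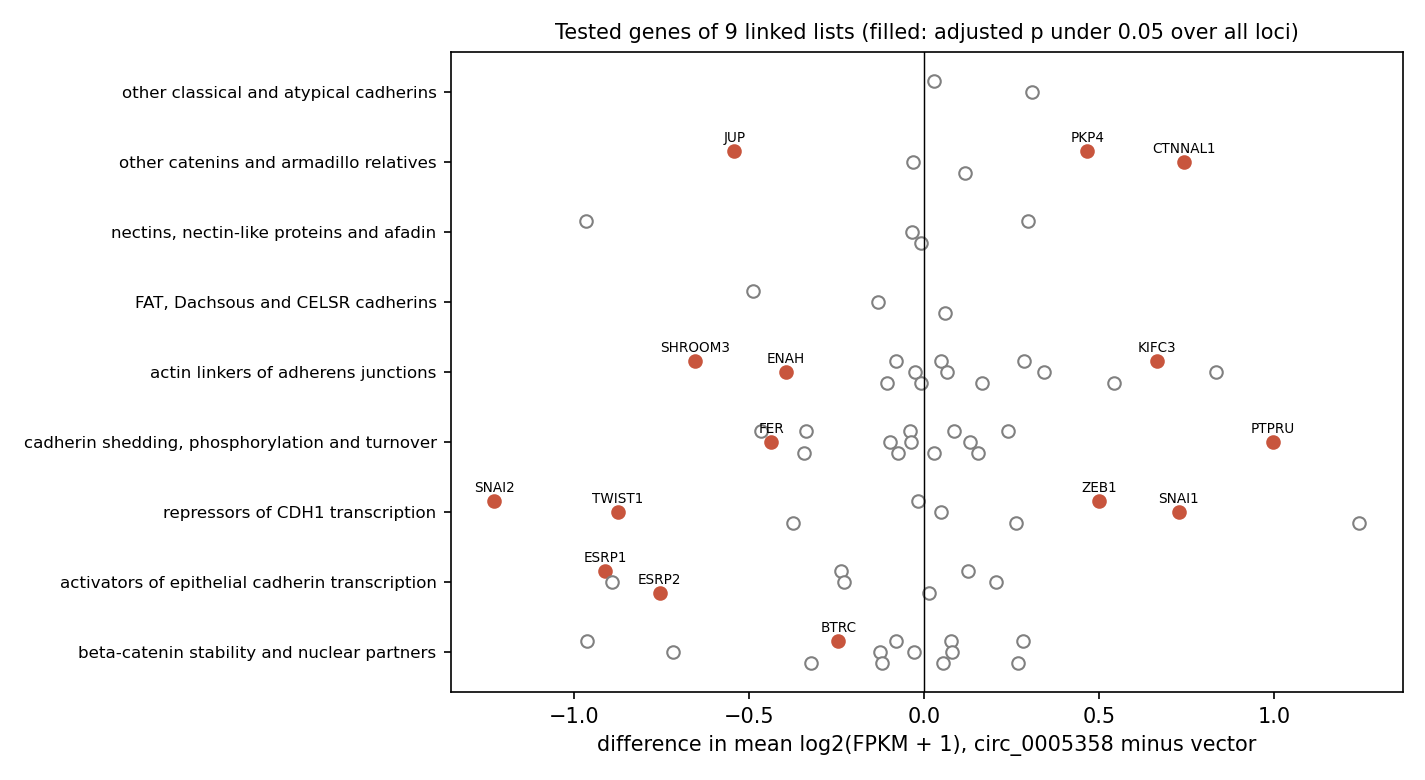
Difference in mean log2(FPKM + 1), circ_0005358 minus vector, for each tested gene of 9 lists, one list per line and 1 point per gene, filled and named where limma's adjusted p over all loci was under 0.05. SNAI2 and TWIST1 lie left of 0 and ZEB1 and SNAI1 right of it on the same line, and no filled point stands on the lines of other cadherins, nectins and FAT relatives.

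Over the 6 libraries the levels most like that of CDH1, by Pearson's r of log2(FPKM + 1) among 9281 tested loci, were those of MYOF (r = 0.998), FOLR1 (0.998), MPP7 (0.997), LINC01164 (0.996) and MEX3B (0.995). In all 5 the circ_0005358 libraries lay below the vector libraries, as they did in 15.9% of all tested loci. The r is led by that shared difference between groups, for which the 5 were in effect picked. FOLR1 and LINC01164 entered the fit through their vector libraries alone, so their groups could not overlap. MYOF, a membrane repair gene, measured 57.5, 62.3 and 62.7 FPKM with vector and 42.97, 42.1 and 43.9 FPKM in the circ_0005358 libraries. FOLR1, a folate receptor gene, measured 2.47, 3.58 and 3.26 FPKM against 0.423, 0.455 and 0.487 FPKM, and in both genes vector replicate 1 was the lowest vector library, as in CDH1.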

How the data were processed

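The authors deposited 1 table of FPKM values with a column per library. Trimmomatic, HISAT2 and hg19 are named, per the submitters' processing notes. Versions, the FPKM program and the gene annotation: not given in the sources used here. Members and lists were chosen with earlier results of these data known, and a symbol found on several rows was read from the row of highest mean. Gene positions and transcript assignments come from GENCODE 29 (GRCh38), whereas the deposited rows carry no coordinates.

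The table gives FPKM and not counts, so relative depth was estimated from the FPKM step of a single fragment, and no counting interval was drawn. The fit used limma 3.58.1 in R 4.3.3 on log2(FPKM + 1), with a variance trend, for the 10295 loci at FPKM of 1 or more in 3 or more libraries. Its p-values are two-sided and adjusted by Benjamini-Hochberg over these loci, with a threshold of 0.05. The fitting script was checked on simulated data, where it called 42% of 1.5-fold changes and 78% of 2-fold changes. These were changes of FPKM + 1, set only in loci with a mean log2(FPKM + 1) above 1. A gene without a call is therefore not shown to be unchanged. The genes named are the members, up to 4 tested genes of each list with the smallest p, the tested neighbours of CDH3 and CDH1, and the 5 genes most like CDH1. Others were chosen after their values were seen. These are marker genes, TRIML2, ARAP2, TWIST2, EZH2, ZEB2, GRHL1, GRHL2, ELF3, KLF4, OVOL2 and those under the pathway labels in the closing section. Alternatives were other pseudocounts, filters, scalings and variance models, library weights, a replicate block, the sum of rows with a symbol, and libraries left out while keeping the tested loci.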

Additional observations from a re-analysis of the deposited data

How the results depend on the processing

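Under the settings tried, the log2 differences of the 8 tested members kept their sign. With a pseudocount of 0.1 and 0.5 in place of 1, NECTIN3 was at -2.42 and -1.71, PCDH7 at -2.21 and -1.70, CDH1 at -3.66 and -3.24 and CDH3 at -3.62 and -3.11. Leaving out each library gave -3.14 to -2.71 for CDH1 and -2.74 to -2.62 for CDH3. CDH1 missed the threshold only when the library of highest locus count (vector replicate 3) and the shallowest (circ_0005358 replicate 2) were dropped together. Members past the threshold numbered 3 of 6 tested with FPKM of at least 5 in 3 libraries, and 4 to 5 with each library left out. The 1171 calls over all loci became 591 with no filter (more loci tested), 582 to 802 with each library left out and 378 with the pair dropped. Calls among listed genes went from 15 to 10 to 13 with each library left out and to 2 with the pair dropped. Calls among neighbours went from 3 to 2 to 3 with each library left out, to 1 with the pair dropped and to 1 with FPKM of at least 5. With the replicate block 259 loci, 4 listed genes and 0 neighbours were called by limma (5 of 17 neighbours at an unadjusted p under 0.05), and NECTIN3 was not. Same-numbered libraries correlated at 0.064, 0.048 and 0.078 in their deviations from group means, each highest with its own number, too little to treat the numbers as pairs. Some small uncalled differences changed sign. CDH13 went to -0.0039 with rescaled sums and -0.012 with quantile normalization. With each library left out NECTIN1 ranged from -0.11 to 0.015, AFDN from -0.038 to 0.011 and CELSR3 from -0.070 to 0.20. AFDN went to 0.00029 with library weights and 0.013 with the pair dropped. The cause of these changes was not tested. The depth behind single values is unknown, which limits values well below 1 FPKM such as those of CDH2.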

Other observations

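The deposited annotation marks 72 rows as Adherens junction, a label looked at after the values of the members were seen. Without the members 67 rows remain, of which 54 were tested, 5 rose and 4 fell, with a median log2 difference of 0.02. The share called was 16.7%, where 11.4% of all tested loci were called. FGFR1, a fibroblast growth factor receptor gene, rose from 1.34 ± 0.0265 to 3.09 ± 0.265 FPKM (mean ± SD, n = 3 each; log2 difference 0.80, limma adjusted p = 0.00261). WASF1, a regulator of actin nucleation, rose by 0.55 (limma adjusted p = 0.0153) on the log2 scale, while its relative WASF2 had a log2 difference of -0.22 (limma adjusted p = 0.0482). SMAD3, a transducer of TGF-beta signals, rose by 0.34 (limma adjusted p = 0.0480) and FARP2, a guanine nucleotide exchange factor gene, by 0.29 (limma adjusted p = 0.0382) on the log2 scale. TJP1, the junction scaffold ZO-1, fell from 19.02 ± 1.53 to 14.04 ± 0.866 FPKM (mean ± SD, n = 3 each; log2 difference -0.41, limma adjusted p = 0.0332). The calls of WASF2, SMAD3, FARP2 and TJP1 were each lost on leaving out any 1 of the 6 libraries (limma adjusted p up to 0.146, 0.133, 0.115 and 0.0943), and that of WASF1 on leaving out vector replicate 1 or 2 or circ_0005358 replicate 3 (up to 0.0623). SNAI1, SNAI2 and FER, described above, complete these 9.

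The label Cell adhesion molecules, also looked at after the values were seen, covers CDH1, CDH3, CDH2 and NECTIN3. Without the members 136 rows remain, of which 35 were tested, 1 rose and 5 fell, with a median log2 difference of 0.05. The share called was 17.1%, against 11.4% of all tested loci. CLDN1, a claudin of tight junctions, fell from 117 ± 3.31 to 9.10 ± 0.874 FPKM (mean ± SD, n = 3 each; log2 difference -3.55, limma adjusted p = 5.54e-05). SDC4, a heparan sulfate proteoglycan of focal adhesions, fell from 120 ± 3.06 to 73.4 ± 2.16 FPKM (mean ± SD, n = 3 each; -0.70, limma adjusted p = 0.00130), and its relative SDC1 rose from 5.19 to 7.07 FPKM (0.39, limma adjusted p = 0.0386). ITGA6, an integrin of hemidesmosomes, fell from 25.6 to 19.4 FPKM (-0.39, limma adjusted p = 0.0120). The joined rows of ITGB1, an integrin beta subunit, and L1CAM, a neural adhesion molecule, had log2 differences of -0.39 and -0.55 (limma adjusted p = 0.0359 and 0.0240). With 1 library left out the ITGA6 call was lost without vector replicate 2 (limma adjusted p = 0.0518). The SDC1 call was lost without any library but vector replicate 3 (up to 0.122), that of L1CAM without any but circ_0005358 replicate 2 (up to 0.0785) and that of ITGB1 without any but circ_0005358 replicate 3 (up to 0.108).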
